A study of Homo sapiens with 10 samples.

Results

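The EGF receptor family and its ligands were followed across T47D human breast cancer cells that lacked or carried an A isoform of the progesterone receptor (PR-A). The family was taken as 9 genes, the receptors EGFR, ERBB3 and ERBB4 and the ligands AREG, EREG, HBEGF, TGFA, EGF and NRG1, and its measurements were all probe sets of the table whose only gene symbol is 1 of these. Of the 9 genes, 8 had such a probe set in the table used here, with 16 probe sets in all, among 8904 genes with a probe set of their own and 16376 probe sets. AREG (amphiregulin) had none with its symbol alone. Probe sets with several symbols were not searched for it, and its level was not analysed here. EGFR had 4 probe sets, ERBB3 had 3, EREG, TGFA and NRG1 had 2 each, and ERBB4, HBEGF and EGF had 1 each.

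The 5 groups had 2 Affymetrix U133 Plus 2 arrays each, 10 in all. T47D-Y is a cloned PR-negative subline of T47D, a luminal breast cancer line, and it was measured with vehicle (ethanol) alone. The other 4 groups were T47D-Y cells stably transfected with wild-type PR-A (WT PR-A) or with PR-A K388R, whose substituted lysine is the site at which the receptor is joined to SUMO, each given vehicle or 10 nM R5020, a synthetic progestin, for 24 h. T47D-Y cells with R5020 were not analysed here. Each receptor is represented by 1 stably transfected line, so that the receptor and the line that carries it cannot be told apart. The labels do not say whether the 2 arrays of a group came from separate cultures, and the p-values then rest on a spread between arrays that may be technical.

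Receptors of this family are tyrosine kinases of the cell surface that pair when a ligand binds and then phosphorylate each other. EGF, TGF-alpha (TGFA), amphiregulin, epiregulin (EREG) and heparin-binding EGF-like growth factor (HBEGF) bind EGFR, and epiregulin and HBEGF also bind ERBB4. Neuregulin 1 (NRG1) binds ERBB3 and ERBB4, and ERBB3, whose own kinase is weak, signals through its partner. The paired receptors recruit adaptors to the RAS-MAPK cascade and the PI3K-AKT arm, and most ligands are made as membrane proteins that sheddases release. Progestins are known to raise growth factor receptors in breast cells. The comparisons asked how each PR-A form, with and without R5020, was associated with the levels of these genes.

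The promoter windows of 4 members are shown because EGFR, EGF and TGFA were higher with R5020 in both PR-A lines and EREG differed between the lines. Each holds 250 bases before and 50 bases from the start site, read 5′ to 3′ along the gene's strand from RefSeq on GRCh38.p14, and letters that match a searched motif are in capitals. The windows are EGFR at chr7:55018767-55019066 (plus strand), EGF at chr4:109912633-109912932 (plus strand), EREG at chr4:74364895-74365194 (plus strand) and TGFA at chr2:70553777-70554076 (minus strand).
EGFR: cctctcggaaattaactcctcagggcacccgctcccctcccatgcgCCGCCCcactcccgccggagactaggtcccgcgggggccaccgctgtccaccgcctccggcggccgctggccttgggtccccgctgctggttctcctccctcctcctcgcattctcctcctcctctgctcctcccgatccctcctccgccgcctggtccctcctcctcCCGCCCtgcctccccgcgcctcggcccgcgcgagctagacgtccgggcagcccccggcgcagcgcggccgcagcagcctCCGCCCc
EGF: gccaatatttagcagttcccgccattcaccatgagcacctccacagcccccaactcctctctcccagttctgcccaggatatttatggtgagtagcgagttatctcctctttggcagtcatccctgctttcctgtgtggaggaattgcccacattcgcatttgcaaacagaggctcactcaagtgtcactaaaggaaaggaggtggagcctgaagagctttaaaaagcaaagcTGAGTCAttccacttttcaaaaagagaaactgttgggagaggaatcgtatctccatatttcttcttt
EREG: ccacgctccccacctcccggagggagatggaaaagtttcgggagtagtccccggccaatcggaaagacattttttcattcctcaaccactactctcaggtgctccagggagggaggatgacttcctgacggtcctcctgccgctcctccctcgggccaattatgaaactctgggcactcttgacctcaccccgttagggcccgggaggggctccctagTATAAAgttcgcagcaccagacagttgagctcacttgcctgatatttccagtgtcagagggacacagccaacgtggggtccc
TGFA: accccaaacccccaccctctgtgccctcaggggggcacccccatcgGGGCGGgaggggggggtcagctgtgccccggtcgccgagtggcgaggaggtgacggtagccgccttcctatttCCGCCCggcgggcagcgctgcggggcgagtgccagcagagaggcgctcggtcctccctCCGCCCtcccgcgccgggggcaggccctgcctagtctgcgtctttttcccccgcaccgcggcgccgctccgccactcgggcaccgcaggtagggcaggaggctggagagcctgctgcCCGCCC

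A set of 5 motifs was searched on both strands. The progesterone response element and its hexamer can overlap, and the others cannot contain each other. The palindromic progesterone response element, written GNACANNNTGTNC, was in none of the 4 windows, against 0.39% of the 35116 windows of the same length. The hexamer TGTTCT, which reads AGAACA along the other strand, was also in none of them, against 14.8% of all windows. GC boxes (GGGCGG or CCGCCC), present in 45% of all windows, occurred 3 times in the EGFR window and 4 times in the TGFA window. The EGF window held 1 AP-1 site (TGANTCA, 7.71% of all windows) at position -17 from the start site, and the EREG window held 1 TATA box (TATAAA, 11.5%) at position -32. RefSeq gives a second window for 2 of these genes, not printed here. That of EGFR (chr7:55109589-55109888) held 1 hexamer, 2 AP-1 sites and 2 TATA boxes and no GC box, and that of TGFA (chr2:70553397-70553696) held 1 hexamer and no GC box; the full element was in neither. A match describes the letters of a window and is not a measured binding site. GC bases made up 75.3% of the EGFR window, 75.3% of the TGFA window, 57.7% of the EREG window and 46.7% of the EGF window. The median over all windows was 58.7%.

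In WT PR-A cells, R5020 raised EGFR, EGF, TGFA and HBEGF and lowered ERBB3. Of the 16 probe sets, 6 passed the test, 5 higher and 1 lower, which is 37.5% against 6.41% of all probe sets (3.63% of all were higher). In PR-A K388R cells 4 passed, all higher, which is 25% against 1.4% of all probe sets (1.01% of all were higher): both EGFR probe sets that rose in WT PR-A cells, TGFA and EGF. The median change of the 16 was 0.13 in WT PR-A cells and 0.05 in the PR-A K388R line on the log2 scale, beside -0.01 and 0.00 over the whole table. The members were chosen with earlier results of these data known, so these shares and medians describe the members and do not test them. Calls needed a limma p under 0.05 after Benjamini-Hochberg adjustment across the table and a fold of at least 1.5 (0.58 on the log2 scale). All values are log2 signals normalised by the authors, and levels of different probe sets cannot be set against each other. In RNA from whole cultures, a changed share of cells and a changed amount of RNA per cell cannot be told apart.

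EGFR, the receptor of EGF and TGF-alpha, showed the largest R5020 response of the receptors, on probe set 201983_s_at. Its log2 signal was 8.47 and 8.45 in WT PR-A cells with vehicle and 10.35 and 10.25 with R5020. In PR-A K388R cells it was 7.46 and 7.25 with vehicle and 8.76 and 8.89 with R5020, and in T47D-Y cells it was 7.03 and 7.24. In both PR-A lines the R5020 arrays lay above the vehicle arrays without overlap, and the WT PR-A R5020 arrays were above the 8 others. The response was 1.84 on the log2 scale in WT PR-A cells, a 3.57-fold rise (SE 0.13, limma adjusted p = 3.33e-05), and 1.47 in the PR-A K388R line, a 2.77-fold rise (SE 0.13, limma adjusted p = 6.44e-04).

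The groups ordered on this probe set as T47D-Y, PR-A K388R with vehicle, WT PR-A with vehicle, PR-A K388R with R5020 and WT PR-A with R5020, at mean log2 signals of 7.14, 7.35, 8.46, 8.83 and 10.3. Vehicle-treated PR-A K388R and T47D-Y cells did not differ by the test (log2 difference 0.22, limma adjusted p = 0.382). WT PR-A cells with vehicle were 1.11 above PR-A K388R cells with vehicle (SE 0.13, limma adjusted p = 5.98e-04). R5020-treated PR-A K388R cells were 0.36 above vehicle-treated WT PR-A cells, which did not pass (limma adjusted p = 0.1). WT PR-A cells with R5020 were 1.47 above PR-A K388R cells with R5020 (limma adjusted p = 9.45e-05). Relative to T47D-Y, R5020-treated PR-A K388R cells were 1.69 higher (limma adjusted p = 6.11e-05), in a comparison that called 6.28% of all probe sets; the comparison of R5020-treated PR-A K388R with vehicle-treated WT PR-A cells called 8.65%.

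The other EGFR probe sets moved less. On 201984_s_at the log2 signal was 7.01 and 6.95 in WT PR-A cells with vehicle and 8.49 and 8.19 with R5020, 6.58 and 6.91 in the PR-A K388R line with vehicle and 7.60 and 7.49 with R5020, and 6.61 and 6.74 in T47D-Y cells. The R5020 arrays of either line were above all 6 vehicle arrays. The response was 1.36 in WT PR-A cells (SE 0.15, limma adjusted p = 3.98e-04) and 0.80 in the PR-A K388R line (SE 0.15, limma adjusted p = 0.0338). The latter did not pass without PR-A K388R vehicle replicate 1 (0.59, limma adjusted p = 0.235), without PR-A K388R R5020 replicate 1 (0.73, 0.241) or replicate 2 (0.87, 0.149), without either WT PR-A vehicle array (0.0649 each) or without either T47D-Y array (0.0562 each).

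On the EGFR probe set 1565483_at the log2 signal was 6.49 on both WT PR-A vehicle arrays and 6.80 to 7.12 on the other 8 arrays. Its rise with R5020 in WT PR-A cells, 0.58 (limma adjusted p = 0.00771), was just under the fold threshold, and its change in the PR-A K388R line was -0.09. The call was gained without WT PR-A R5020 replicate 1 (0.64, limma adjusted p = 0.0351). The probe set 1565484_x_at, a kind that can also match other transcripts, was between 6.05 and 6.95 on all arrays, with changes of 0.53 in WT PR-A cells (limma adjusted p = 0.143) and -0.06 in the PR-A K388R line. These 2 probe sets and the first 2 thus give different pictures of EGFR in the PR-A K388R line.

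ERBB3, which signals through a partner when NRG1 binds, was lower with R5020 on its brightest probe set, 202454_s_at. Its log2 signal was 11.27 and 11.32 in WT PR-A cells with vehicle and 10.85 and 10.49 with R5020, 11.28 and 11.59 in the PR-A K388R line with vehicle and 11.01 and 10.85 with R5020, and 11.30 and 11.45 in T47D-Y cells. All 4 R5020 arrays lay below all 6 vehicle arrays. The change was -0.62 in WT PR-A cells, a 1.54-fold fall (SE 0.16, limma adjusted p = 0.037), and -0.51 in the PR-A K388R line, which did not pass (limma adjusted p = 0.209).

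The ERBB3 call was not firm. It was lost without WT PR-A vehicle replicate 1 (change -0.65) or replicate 2 (-0.59) and without WT PR-A R5020 replicate 2 (-0.40). It was also lost, with the change still at -0.62, without either PR-A K388R R5020 array and without either T47D-Y array. ERBB3 probe set 1563253_s_at changed by -0.33 in WT PR-A cells (limma adjusted p = 0.169) and -0.07 in the PR-A K388R line. Probe set 1563252_at changed by -0.15 and 0.30, neither of which passed. Markers of the luminal epithelium differed among themselves. Their mean log2 signal over the 6 measured of 9 listed (ESR1, FOXA1, KRT18, KRT19, XBP1 and CDH1) was 11.4 to 11.5 in WT PR-A cells with vehicle and 10.9 on both R5020 arrays, and 11.7 with vehicle and 11.4 to 11.6 with R5020 in the PR-A K388R line, against 11.8 to 11.9 in T47D-Y cells. Of the 6, only FOXA1 was called in WT PR-A cells, at -1.46 (limma adjusted p = 1.59e-04). None was called in the PR-A K388R line (FOXA1 at -0.61, limma adjusted p = 0.0698). ESR1 (-0.61, limma adjusted p = 0.0798), KRT18 (-0.56, 0.0118, under the fold threshold) and KRT19 (-0.47, 0.0651) also lay lower in WT PR-A cells with R5020. The K388R line had changes of -0.41, -0.01 and -0.05 for these, in that order. XBP1 was at 0.05 in WT PR-A cells and 0.01 in the K388R line, and CDH1 at -0.16 and -0.20. The part of the luminal markers in the ERBB3 result and the other R5020 results was not tested.

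ERBB4, the other NRG1 receptor, had a log2 signal of 2.94 to 3.33 on its probe set 206794_at over the 10 arrays, beside array lower quartiles of 3.28 to 3.39 over all probe sets. It did not pass in any comparison, with changes of -0.26 in WT PR-A cells (limma adjusted p = 0.313) and -0.04 in the PR-A K388R line. At this level a change would be hard to see.

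**Figure D1:**
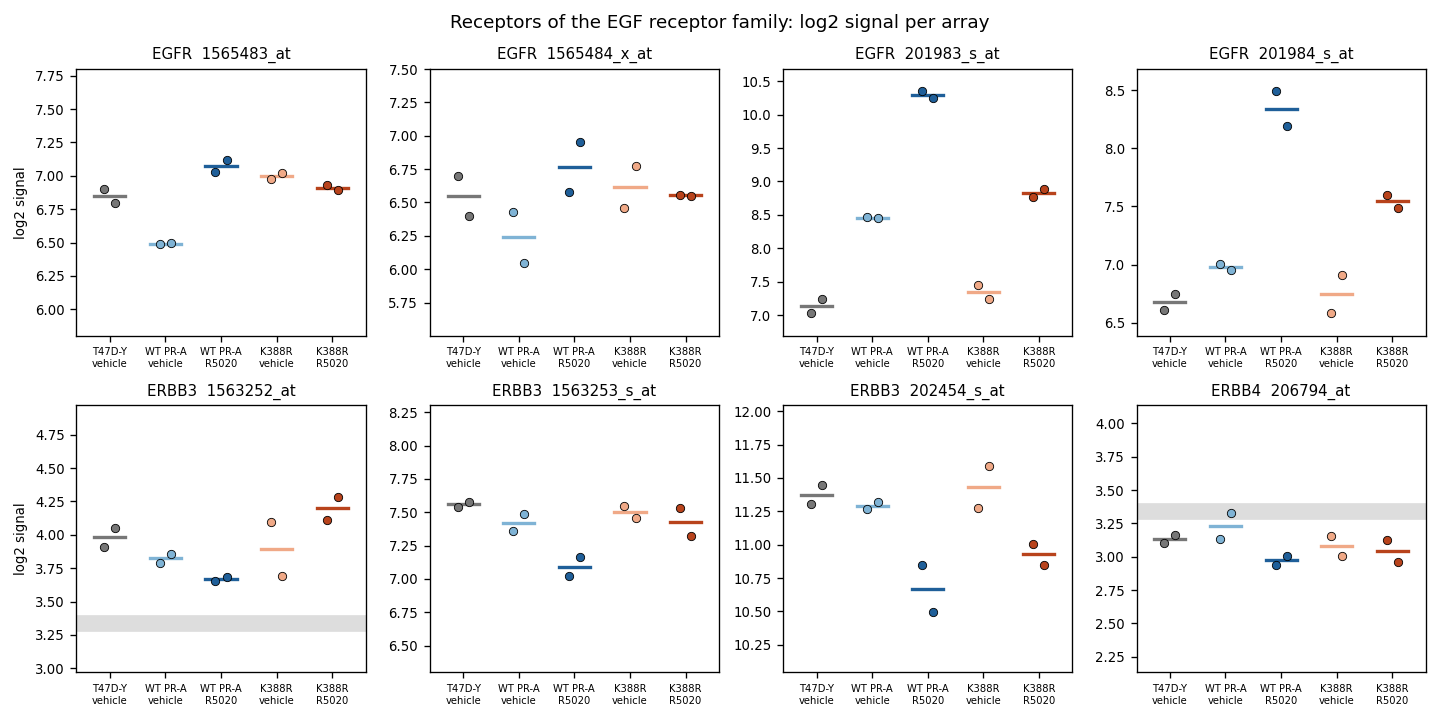
Log2 signal (vertical axes) of each receptor probe set on each array, by group (horizontal axes); points are arrays, lines are group means of 2 arrays, the gray band spans the arrays' lower quartiles where it falls in the panel, and vertical ranges differ between panels. The R5020 arrays of EGFR 201983_s_at and 201984_s_at are above the vehicle arrays of the same line, those of ERBB3 202454_s_at are below them, and ERBB4 lies between 2.94 and 3.33.

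Among the ligands, EGF had the largest R5020 response and also differed between the lines without R5020. Its log2 signal on 206254_at was 6.97 and 7.38 in WT PR-A cells with vehicle and 9.09 and 8.89 with R5020. In PR-A K388R cells it was 4.63 and 4.59 with vehicle and 5.65 and 5.38 with R5020, and in T47D-Y cells it was 4.99 and 5.09. All 4 WT PR-A arrays were above the 6 others, and in each PR-A line the R5020 arrays were above the vehicle arrays. The response was 1.82 in WT PR-A cells, a 3.52-fold rise (SE 0.16, limma adjusted p = 1.18e-04), and 0.91 in the PR-A K388R line, a 1.88-fold rise (SE 0.16, limma adjusted p = 0.026).

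The EGF response of PR-A K388R cells kept its direction, but not its call, without 1 array of that line: without vehicle replicate 1 it was 0.93 (limma adjusted p = 0.141), without vehicle replicate 2 it was 0.88 (0.162), without R5020 replicate 1 it was 0.74 (0.224) and without R5020 replicate 2 it was 1.07 (0.0642). In WT PR-A cells the call was kept without any 1 array. The groups ordered as PR-A K388R with vehicle, T47D-Y, PR-A K388R with R5020, WT PR-A with vehicle and WT PR-A with R5020. PR-A K388R cells did not differ from T47D-Y by the test with vehicle (-0.43, limma adjusted p = 0.17) or with R5020 (0.48, 0.0986). Vehicle-treated WT PR-A cells were 1.66 above R5020-treated PR-A K388R cells (SE 0.16, limma adjusted p = 1.52e-04).

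TGFA, which encodes the EGFR ligand TGF-alpha, rose by about the same amount in both lines on 205016_at. Its log2 signal was 6.89 and 7.24 in WT PR-A cells with vehicle and 7.72 and 7.76 with R5020, 7.28 and 6.9995 in the PR-A K388R line with vehicle and 7.87 and 7.88 with R5020, and 7.03 and 6.92 in T47D-Y cells. All 4 R5020 arrays lay above all 6 vehicle arrays. The response was 0.68 in WT PR-A cells (SE 0.15, limma adjusted p = 0.0181) and 0.74 in the PR-A K388R line (SE 0.15, limma adjusted p = 0.0435), and R5020-treated PR-A K388R cells were 0.90 above T47D-Y cells (limma adjusted p = 0.00458). The second TGFA probe set, 205015_s_at, changed by 0.34 and 0.22, neither of which passed.

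Both TGFA calls were lost without some arrays. In WT PR-A cells these were WT PR-A vehicle replicate 1 (0.46, limma adjusted p = 0.204), WT PR-A R5020 replicate 1 (0.70, 0.0851) and replicate 2 (0.65, 0.0988). In PR-A K388R cells they were PR-A K388R vehicle replicate 1 (0.91, limma adjusted p = 0.0769) and replicate 2 (0.56, 0.3), either PR-A K388R R5020 array (0.236 without replicate 1 and 0.237 without replicate 2), either WT PR-A R5020 array (0.0576 each) and either T47D-Y array (0.0703 each).

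HBEGF, a ligand of EGFR and ERBB4, was called in WT PR-A cells alone, and the difference between the lines' responses did not pass. Its log2 signal on 203821_at was 4.09 and 4.36 in WT PR-A cells with vehicle and 4.91 and 5.23 with R5020, 4.34 and 4.17 in the PR-A K388R line with vehicle and 4.44 and 4.47 with R5020, and 4.13 and 3.69 in T47D-Y cells. Both WT PR-A R5020 arrays were above the 8 others, all of which lay under the array medians of 4.59 to 4.69. The response was 0.84 in WT PR-A cells (SE 0.18, limma adjusted p = 0.0156) and 0.20 in the PR-A K388R line (limma adjusted p = 0.793). The WT PR-A call was lost without WT PR-A vehicle replicate 1 (0.67, limma adjusted p = 0.176) or WT PR-A R5020 replicate 2 (0.64, 0.132).

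EREG did not pass in either R5020 response and set the WT PR-A line apart. Its log2 signal on 205767_at was 7.29 and 7.70 in WT PR-A cells with vehicle and 7.15 and 7.31 with R5020. It was 3.65 and 3.22 in the PR-A K388R line with vehicle, 3.31 and 3.61 with R5020, and 3.62 and 3.17 in T47D-Y cells, close to the arrays' lower quartiles. The 4 WT PR-A arrays were thus far above the 6 others, without overlap, while the changes with R5020 were -0.27 in WT PR-A cells (limma adjusted p = 0.617) and 0.02 in the PR-A K388R line. The second EREG probe set, 1569583_at, spread much less, from 4.51 in T47D-Y to 5.25 in WT PR-A cells with vehicle.

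NRG1, the ligand of ERBB3 and ERBB4, did not pass in any comparison. Its log2 signal was 4.05 to 4.62 on 206237_s_at and 2.50 to 2.79 on 206343_s_at over the 10 arrays, the latter below the arrays' lower quartiles. The changes with R5020 were -0.14 and -0.07 in the WT PR-A line and 0.03 and -0.11 in the PR-A K388R line.

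**Figure D2:**
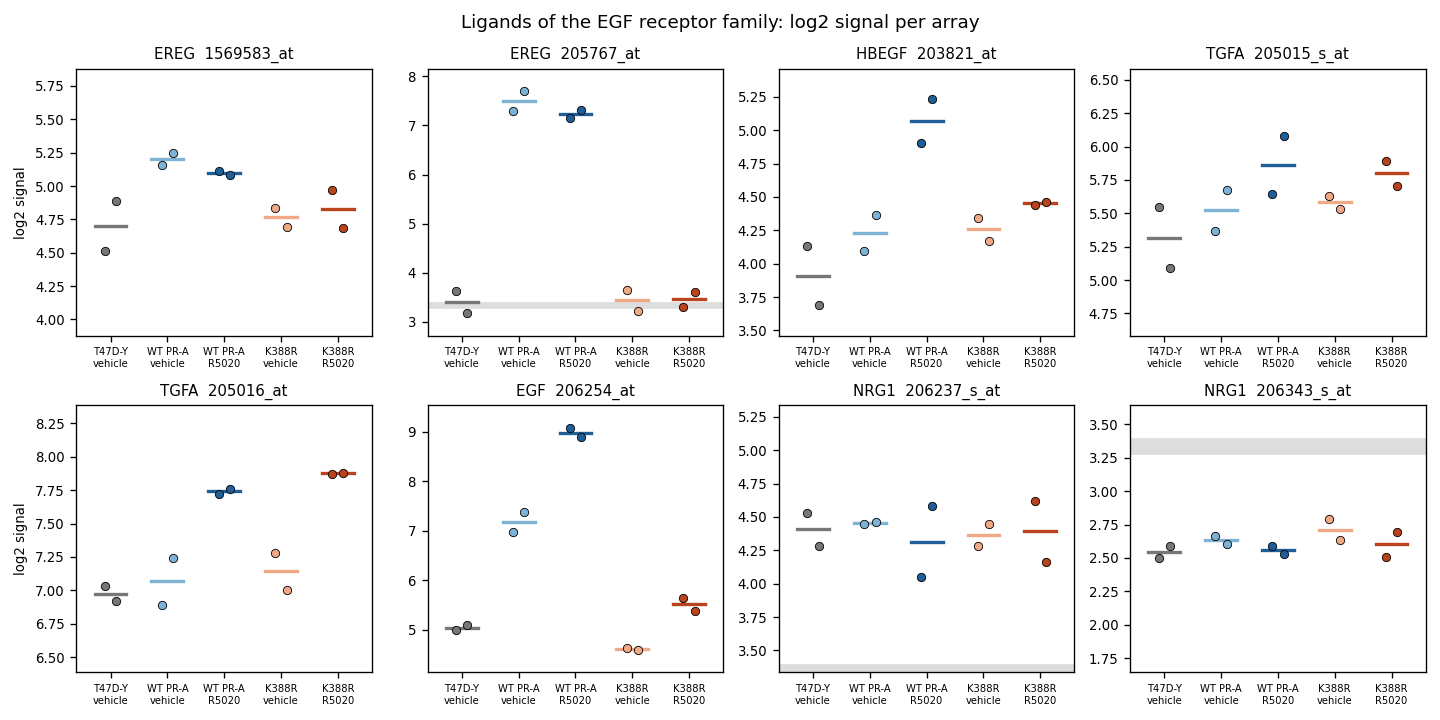
Log2 signal (vertical axes) of each ligand probe set on each array, by group (horizontal axes); points are arrays, lines are group means of 2 arrays, the gray band spans the arrays' lower quartiles where it falls in the panel, and vertical ranges differ between panels. EGF and EREG 205767_at are higher on the 4 WT PR-A arrays than on the 6 others, and TGFA 205016_at is higher with R5020 in both PR-A lines.

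The responses of the lines were compared directly, by subtracting the WT PR-A response to R5020 from the PR-A K388R response. None of the 16 probe sets was called, against 1.47% of all probe sets. For EGFR 201983_s_at the difference was -0.36 (SE 0.18, 95% CI -0.77 to 0.04, limma adjusted p = 0.488) and for 201984_s_at it was -0.56 (limma adjusted p = 0.31). For EGF it was -0.91 (95% CI -1.41 to -0.40, limma adjusted p = 0.095), for HBEGF it was -0.65 (limma adjusted p = 0.327), and for TGFA 205016_at it was 0.06. The smallest adjusted p was that of EGFR 1565483_at, with a difference of -0.67 (limma adjusted p = 0.0684). Without the replicate block the EGF difference (adjusted p = 0.0473) and that of EGFR 1565483_at (adjusted p = 0.0192) passed, in a fit that counts more independent arrays than the values hold. A response that passed in WT PR-A cells and not in the PR-A K388R line is therefore not shown to differ between the lines.

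Levels without R5020 were compared with those of the PR-negative cells. In vehicle-treated WT PR-A cells 3 of the 16 probe sets (18.8%) were called, all higher than in T47D-Y, against 7.28% of all probe sets. EREG 205767_at was 4.10 higher on the log2 scale (SE 0.21, limma adjusted p = 6.28e-06), EGF was 2.14 higher (SE 0.16, limma adjusted p = 4.09e-05) and EGFR 201983_s_at was 1.33 higher (SE 0.13, limma adjusted p = 1.91e-04). The size of the EREG difference depends on a T47D-Y level near the arrays' lower quartiles. EGFR 201984_s_at was 0.30 higher (limma adjusted p = 0.306) and EREG 1569583_at was 0.50 higher (limma adjusted p = 0.0721); the latter passed without T47D-Y replicate 2 (0.74, limma adjusted p = 0.0342). The remaining EGFR probe sets lay the other way and did not pass, with -0.36 on 1565483_at (limma adjusted p = 0.0705) and -0.31 on 1565484_x_at (limma adjusted p = 0.428). In vehicle-treated PR-A K388R cells none of the 16 was called, against 3.36% of all probe sets, with 0.04 for EREG 205767_at and 0.22 for EGFR 201983_s_at. Both comparisons share the T47D-Y arrays.

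Set against each other with vehicle, PR-A K388R cells were below WT PR-A cells on 3 probe sets (18.8%, against 7.43% of all probe sets called in either direction). These were EREG 205767_at at -4.06 (limma adjusted p = 6.45e-06), EGF at -2.56 (limma adjusted p = 1.37e-05) and EGFR 201983_s_at at -1.11. EGFR 1565483_at lay the other way, at 0.50 (limma adjusted p = 0.0147), under the fold threshold. With R5020, PR-A K388R cells were below WT PR-A cells on 5 probe sets (31.2%, against 8.91% of all probe sets called in either direction). EGF was lower, at -3.47 (SE 0.16, limma adjusted p = 2.07e-06), EREG 205767_at was at -3.77 (SE 0.21, limma adjusted p = 7.98e-06), EGFR 201983_s_at at -1.47, EGFR 201984_s_at at -0.80 (limma adjusted p = 0.00652) and HBEGF at -0.62 (limma adjusted p = 0.0461). As against T47D-Y, the sizes of both EREG differences are uncertain, since EREG 205767_at in the PR-A K388R line was close to the arrays' lower quartiles.

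Of these last 5, EGFR 201984_s_at was not called without WT PR-A R5020 replicate 1 (-0.61, limma adjusted p = 0.0614) or PR-A K388R R5020 replicate 2 (-0.73, 0.0569). HBEGF was not called without WT PR-A R5020 replicate 2 (-0.41, limma adjusted p = 0.314), PR-A K388R R5020 replicate 1 (0.198) or replicate 2 (0.145), either WT PR-A vehicle array (0.0532 each) or either PR-A K388R vehicle array (0.0555 each). The calls of EGFR 201983_s_at, EGF and EREG 205767_at in the comparisons between lines were kept without any 1 array.

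**Figure D3:**
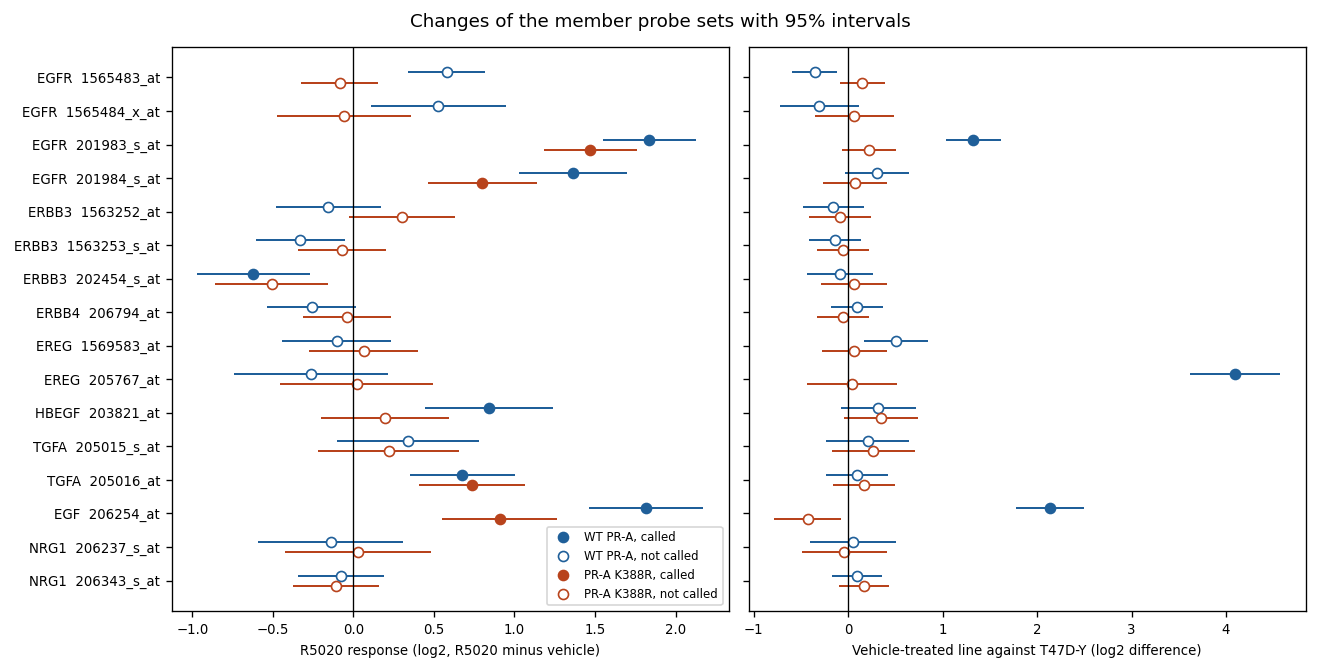
Log2 changes (horizontal axes) of the 16 member probe sets (rows) with their 95% confidence intervals, for R5020 in each PR-A line (left) and for the PR-A lines with vehicle set against T47D-Y (right); filled points were called and open points were not. EGFR 201983_s_at, EGFR 201984_s_at, TGFA 205016_at and EGF were called with R5020 in both lines, and EREG 205767_at stands at 4.10 for WT PR-A with vehicle and at 0.04 for PR-A K388R.

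The genes whose profile over the 10 arrays was most like that of a called member were sought among probe sets of 1 gene with a range of at least 1 log2 unit between group means. For EGFR 201983_s_at these were KIAA0040 (Pearson r = 0.989), NAMPT (0.980) and ERLIN1 (0.973), and for EGFR 201984_s_at they were MS4A15 (0.987), PDK4 (0.986) and ERLIN1 (0.973). PDK4, a kinase that inhibits pyruvate dehydrogenase, is a known progestin target. For EGF they were SRGN (0.992), CSRP1 (0.990) and SNAPC3 (0.987), and for TGFA 205016_at they were LLGL2 (0.966), P4HA2 (0.959) and F3 (0.956), the last of which encodes tissue factor. For HBEGF they were ESYT2 (0.974), BAIAP2 (0.959) and TSC22D2 (0.951). For ERBB3 202454_s_at they were SNPH (0.960), SDCBP (0.926) and FOXA1 (0.906), the last a luminal transcription factor. The 10 points share 5 groups and 1 normalisation, and these values describe the arrays only.

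The genes around the receptors were counted from 6 lists of 125 genes, of which 69 were measured. The lists were written with earlier results of these data known. A count above the share of all genes is therefore no test of a list. In WT PR-A cells 11 of the 69 rose and 6 fell with R5020, against 4.4% and 3.47% of all genes, with a median of 0.10 beside -0.02 over all genes. In PR-A K388R cells 4 rose and 2 fell, against 1.25% and 0.416% of all genes, with a median of 0.06 beside 0.01. Of 6 further receptors and ligands (ERBB2, BTC, EPGN, NRG2, NRG3 and NRG4) 1 was measured, NRG2, and it did not pass. The receptor ERBB2 was thus not measured here. The shares of all genes given above are also those to set beside the R5020 counts of each list that follows.

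Among 14 measured adaptors and members of the RAS-MAPK cascade, 3 rose in WT PR-A cells and none passed in the PR-A K388R line. SHC1, an adaptor that binds the phosphorylated receptors, had log2 signals of 8.21 and 8.15 with vehicle and 9.15 and 9.38 with R5020 in WT PR-A cells, a rise of 1.09 (SE 0.13, limma adjusted p = 7.35e-04). GAB2, a docking protein for PI3K, rose by 0.89 (limma adjusted p = 0.0012). Its log2 signals in WT PR-A cells were 6.82 and 6.80 with vehicle and 7.78 and 7.62 with R5020. The R5020 arrays thus stayed below the T47D-Y arrays, at 8.04 and 8.12. PLCG1, the phospholipase that acts downstream of the receptors, rose by 0.70 (limma adjusted p = 0.00435). The PLCG1 call was lost in 2 of 10 fits without 1 array.

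Of 10 measured genes of the PI3K-AKT and STAT arm, 3 rose and 2 fell in WT PR-A cells and 2 rose and 2 fell in the PR-A K388R line. STAT5A, a transcription factor of prolactin and growth factor signalling, rose by 1.34 in WT PR-A cells (SE 0.12, limma adjusted p = 1.09e-04) and by 0.96 in the PR-A K388R line (limma adjusted p = 0.00446). INPP4B, a lipid phosphatase that opposes PI3K, had log2 signals of 8.93 and 9.18 with vehicle and 7.46 and 7.33 with R5020 in the WT PR-A line. In the PR-A K388R line they were 6.64 and 6.32 with vehicle and 5.51 and 5.50 with R5020. T47D-Y cells had INPP4B at 7.26 and 7.47, close to the WT PR-A level with R5020. Its changes were -1.67 (SE 0.15, limma adjusted p = 1.28e-04) and -0.98 (limma adjusted p = 0.0131). PIK3R3, a regulatory subunit of PI3K, changed by -1.23 (limma adjusted p = 1.32e-04) and -0.61 (limma adjusted p = 0.0286), and JAK2, a cytokine receptor kinase, by 1.66 (limma adjusted p = 3.57e-05) and 0.63 (limma adjusted p = 0.0336). In PR-A K388R cells the PIK3R3 call was lost in 8 of 10 fits without 1 array, that of JAK2 in 6, that of INPP4B in 3 and that of STAT5A in 2.

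Of 17 measured feedback inhibitors and genes of receptor degradation, 3 rose and 1 fell in WT PR-A cells and 1 rose in the PR-A K388R line. DUSP1, a phosphatase of MAP kinases, rose by 1.87 in WT PR-A cells (SE 0.15, limma adjusted p = 8.02e-05). SH3KBP1, an adaptor of receptor endocytosis, rose by 1.44 (limma adjusted p = 7.1e-04) and by 0.88 in the PR-A K388R line (limma adjusted p = 0.0435), the latter lost in 8 of 10 fits without 1 array. PTPRK, a receptor tyrosine phosphatase, fell with a change of -0.59 in WT PR-A cells (limma adjusted p = 0.015), just past the fold threshold. Its call was lost in 4 of 10 fits without 1 array. Of 11 sheddases and their regulators, 1 rose and 1 fell in WT PR-A cells, and none passed in the PR-A K388R line. In WT PR-A cells 4.4% of all genes rose and 3.47% fell. ADAM15 rose by 0.59 (limma adjusted p = 0.034), just past the fold threshold, and lost its call in 3 of 10 fits without 1 array. TIMP1, a metalloproteinase inhibitor, changed by -0.74 (limma adjusted p = 0.00325).

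Of 16 measured transcripts that ERK signalling is known to raise, 1 rose and 2 fell in WT PR-A cells. Of all genes, 4.4% rose and 3.47% fell. IER3, an early response gene, rose by 0.59 (limma adjusted p = 0.0348), just past the fold threshold. The ETS factors ETV4 and ETV5 changed by -0.66 (limma adjusted p = 0.00999) and -0.95 (limma adjusted p = 0.0488). The IER3 and ETV5 calls were each lost in 6 of 10 fits without 1 array and that of ETV4 in 3. MCL1, an inhibitor of apoptosis, was the 1 that rose in the PR-A K388R line, by 0.64 (limma adjusted p = 0.0338; lost in 6 of 10 fits).

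**Figure D4:**
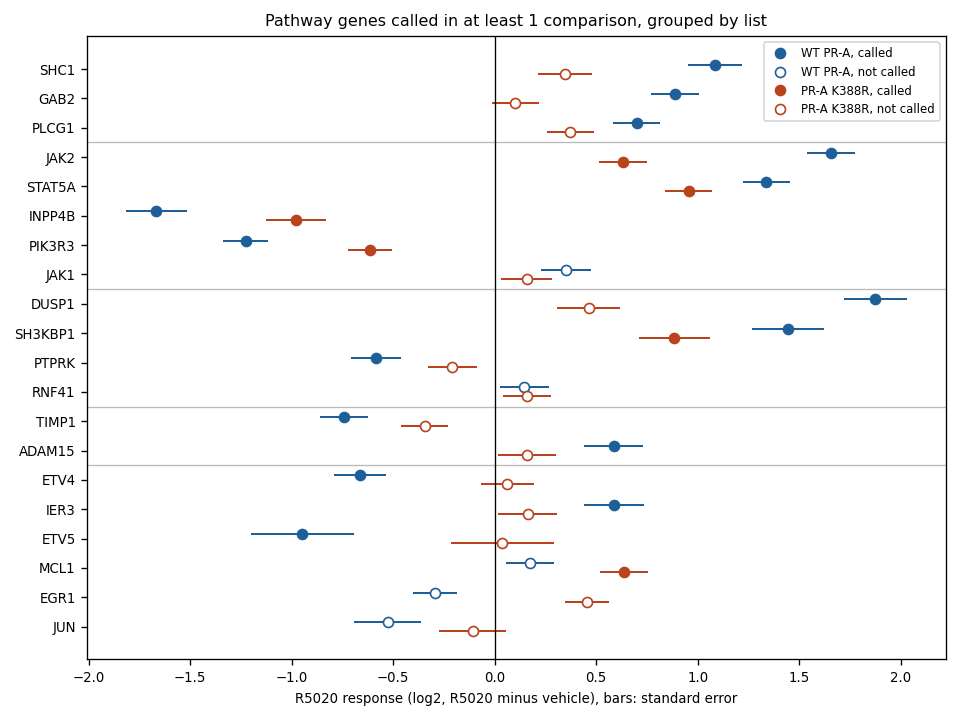
R5020 response (horizontal axis, log2, R5020 minus vehicle) of the 20 named pathway genes (rows, separated by list) in both PR-A lines, with bars of 1 standard error; filled points were called and open points were not. JAK2, STAT5A and SH3KBP1 were called higher, and INPP4B and PIK3R3 lower, in both lines.

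In the difference of the responses 1 of the 69 genes was higher and 2 were lower, against 0.719% and 1.16% of all genes. The lower ones were DUSP1, at -1.41 (SE 0.22, limma adjusted p = 0.0159), and JAK2, at -1.03 (SE 0.17, limma adjusted p = 0.0204). EGR1, a transcription factor that growth factors induce, was at 0.75 (SE 0.15, limma adjusted p = 0.0491). These calls were lost in 4, 7 and 10 of 10 fits without 1 array, in that order. EGR1 was called in neither line's own R5020 response.

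With vehicle, WT PR-A cells had 8 of the 69 genes above and 3 below their T47D-Y level, against 4.48% and 4.03% of all genes. Of the 16 transcripts of ERK signalling 4 were higher and none lower: ETV5 by 3.20 (SE 0.25, limma adjusted p = 6.13e-05), ETV4 by 0.76 (limma adjusted p = 0.00463), JUN by 0.82 (limma adjusted p = 0.0117) and IER3 by 0.73 (limma adjusted p = 0.0118). ETV5 had log2 signals of 8.12 and 7.92 in the WT PR-A line and 5.22 and 4.43 in T47D-Y cells. INPP4B was 1.69 higher (limma adjusted p = 1.18e-04), RNF41, a ubiquitin ligase that lowers ERBB3, was 1.05 higher (limma adjusted p = 4.49e-04) and GAB2 was lower, at -1.27 (limma adjusted p = 1.47e-04). In the other lists DUSP1 (0.77, limma adjusted p = 0.0114) and TIMP1 (0.64, limma adjusted p = 0.00695) were higher, and SH3KBP1 (-0.67, limma adjusted p = 0.041) and the kinase JAK1 (-0.64, limma adjusted p = 0.0107) were lower. The call was lost without 1 array in 7 of 10 fits for SH3KBP1, 4 for JAK1, 3 for DUSP1, 3 for IER3, 2 for JUN, 2 for TIMP1 and 1 for ETV4.

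In vehicle-treated PR-A K388R cells 2 of the 69 were higher and 3 lower than in T47D-Y, against 1.35% and 2.48% of all genes. The lower ones were SH3KBP1 at -1.73 (limma adjusted p = 7.12e-04), TIMP1 at -1.51 (limma adjusted p = 1.12e-04) and INPP4B at -0.89 (limma adjusted p = 0.0107), and PTPRK was 0.94 higher (limma adjusted p = 0.0029) and IER3 0.76 higher (limma adjusted p = 0.0197). The IER3 call was lost in 3 of 10 fits without 1 array and that of INPP4B in 2.

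The labels were checked against other genes. FKBP5, a progestin-induced chaperone, rose by 3.54 in WT PR-A cells (limma adjusted p = 5.82e-07) and by 3.56 in the PR-A K388R line (limma adjusted p = 5.49e-07). It was 1 of 6 measured genes from a list of 8 progestin-response genes. HSD11B2, SGK1, PDK4 and STAT5A were also called higher in both lines. ZBTB16 passed in the PR-A K388R line (0.70, limma adjusted p = 0.0191) and not in WT PR-A cells (0.23, limma adjusted p = 0.354). Of the 6 luminal markers 0 were under the arrays' lower quartiles, and of the 4 basal markers also 0. The mean log2 signal of the basal markers was 5.12 to 5.64, with ACTA2 alone at 7.16 to 8.34. That of 6 fibroblast markers was 4.58 to 5.11 and that of 4 leukocyte markers 3.44 to 3.74. The leukocyte markers PTPRC (2.58 to 2.73) and LYZ (2.86 to 3.24) were under the lower quartile on all arrays, and CD14 and ITGAM were above it. Of the fibroblast markers only LUM (2.34 to 2.62) was under it. COL1A1, a collagen of fibroblasts, was at 6.11 to 9.59 and was lower with R5020 in both lines, at -1.02 (limma adjusted p = 0.0166) and -1.11 (limma adjusted p = 0.042), and its part in the member results was not tested.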

How the data were processed

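RNA of 10 samples was hybridised to Affymetrix U133 Plus 2 arrays. The deposited log2 values were normalised by the authors in Partek Genomics Suite; the normalisation method and background correction are not given in the sources used here. The labels and the study's methods differ on the RNA kit and the medium, and for these cells only the labels call the serum charcoal-stripped. Vehicle-treated cells are therefore described as without R5020. The table used here holds only part of the array's probe sets: 16376, of which 12547 had 1 gene symbol in the platform annotation, 457 had several and 3372 were not listed there. Depth does not apply to arrays, and 2 arrays per group limit the precision.

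The linear model (limma 3.58.1 in R 4.3.3, tested on simulated data) took every array, a mean for each of the 5 groups and the replicate number as a block, which left 4 residual and 5.62 prior degrees of freedom. The block was used because the replicate number had been removed from the values: differences between replicates sum to 0 over the groups (largest absolute sum 3e-04), which voids any check of pairing by number. Without the block there are 5 residual degrees of freedom, of which 4 are independent, and the log2 changes are the same. The Benjamini-Hochberg adjustment covered the whole table.

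The members and gene lists were chosen with earlier results of these data known. In the lists each gene counted once, by its brightest probe set on average. Named were all members, up to 3 called genes per list and comparison with the smallest adjusted p, the 3 genes with the highest r to each member called with R5020, and FKBP5; genes named in the text outside this rule were added as markers. Alternatives were no block, unmoderated analysis of variance, an intensity trend, quantile normalisation, median centring, leaving out the dimmest 40% of probe sets, a fold of at least 2, the compared groups alone, another probe set per gene and each array left out. Promoter windows came from RefSeq on GRCh38.p14, which had a window for 7 of the 9 genes.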

Additional observations from a re-analysis of the deposited data

Results flagged for a closer look

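Among the 69 measured pathway genes, 3 had R5020 responses called as different between the PR-A lines (PR-A K388R minus WT PR-A), 1 higher and 2 lower. Of all genes, 0.719% were called higher and 1.16% lower in this comparison. DUSP1 differed by -1.41 (limma adjusted p = 0.0159), with log2 signals of 6.79 and 7.01 with vehicle and 8.81 and 8.74 with R5020 in WT PR-A cells, against 6.03 and 5.66 and then 6.17 and 6.44 in the PR-A K388R line. JAK2 differed by -1.03 (limma adjusted p = 0.0204), with 6.01 and 6.06 and then 7.62 and 7.76 in WT PR-A cells, against 5.41 and 5.45 and then 6.07 and 6.05 in the PR-A K388R line. EGR1 differed by 0.75 (limma adjusted p = 0.0491), with 5.21 and 5.13 and then 4.87 and 4.88 in WT PR-A cells, against 4.57 and 4.54 and then 5.04 and 4.99 in the PR-A K388R line. These calls were not firm: of 18 alternatives EGR1 lost its call in 15 (all 10 left-out arrays among them), JAK2 in 8 (7 left-out arrays) and DUSP1 in 5 (4 left-out arrays). EGR1 also passed in neither line's own R5020 response. Its change was -0.30 in WT PR-A cells (limma adjusted p = 0.161) and 0.46 in the PR-A K388R line (limma adjusted p = 0.0943).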

How the results depend on the processing

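Of the 21 calls of member probe sets, 0 reversed under any alternative. All 21 kept their call without the replicate block, with an intensity trend, with median centring, with the dimmest 40% of probe sets left out and with the compared groups alone, 20 with quantile normalisation (EGFR 201984_s_at in the PR-A K388R line was lost, at 0.79 with an adjusted p of 0.0539), 13 at a fold of at least 2, and 11 in an analysis of variance without moderated variances. Between 15 and 18 were kept with 1 array left out. The fit without the block has the same log2 changes and counts more independent arrays than the values hold. A call kept in that fit is therefore no added check of it.

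The numbers of member probe sets called moved as follows. With R5020 in WT PR-A cells, 6 became 2 without moderated variances, 3 at a fold of 2, and 3 to 6 with 1 array left out (3 without WT PR-A vehicle replicate 1 or WT PR-A R5020 replicate 2). With R5020 in the PR-A K388R line, 4 became 0 without moderated variances, 1 at a fold of 2, and 1 to 3 with 1 array left out (1 without PR-A K388R vehicle replicate 1 or either R5020 array of that line, 2 without its vehicle replicate 2 or either T47D-Y array). In the difference of the responses, 0 became 2 without the replicate block and 1 without the dimmest probe sets. Between the lines with R5020, 5 became 3 without moderated variances, 3 at a fold of 2, and 3 to 5 with 1 array left out (3 without PR-A K388R R5020 replicate 2).

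Of the pathway genes, 17 called with R5020 in WT PR-A cells became 9 without moderated variances, 8 at a fold of 2 and 10 to 17 with 1 array left out (10 without WT PR-A vehicle replicate 2 or WT PR-A R5020 replicate 1). The 6 in the PR-A K388R line became 0 without moderated variances, 0 at a fold of 2 and 0 to 5 with 1 array left out (2 or fewer without any 1 array of that line or of vehicle-treated WT PR-A cells). The 3 in the difference became 8 without the replicate block, 0 without moderated variances, 5 with an intensity trend and 0 to 2 with 1 array left out (0 or 1 without any 1 array of the PR-A lines). The 11 in vehicle-treated WT PR-A cells against T47D-Y became 4 without moderated variances, 4 at a fold of 2 and 6 to 11 with 1 array left out (7 without WT PR-A vehicle replicate 1, 6 without replicate 2 and 7 without T47D-Y replicate 1). The 5 in vehicle-treated PR-A K388R cells became 0 without moderated variances, 2 at a fold of 2, 3 with the compared groups alone and 3 to 6 with 1 array left out (3 without PR-A K388R vehicle replicate 2). Between the lines with vehicle, 1 of the 69 genes was higher and 11 were lower in PR-A K388R than in WT PR-A cells. With R5020, 3 were higher and 10 lower. In these comparisons 7.43% and 8.91% of all probe sets were called in either direction. The 12 with vehicle became 6 without moderated variances and the 13 with R5020 became 8 at a fold of 2. The stricter fold lowers these counts by its construction. The fit without the block has the same log2 changes and counts 5 residual degrees of freedom, of which 4 are independent. The cause of the other moves was not tested. ERBB4, NRG1 206343_s_at and, outside WT PR-A cells, EREG 205767_at lay below or close to the arrays' lower quartiles, where small changes could be missed.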
